A study of Bos grunniens with 12 samples.

Results

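The collagen genes of yak testis are described here across 2 ages. They were taken as every row of the deposited expression table whose gene symbol reads COL, a number, A and a number, which gave 45 of 20953 rows. These rows carried 38 symbols, and 5 symbols (COL4A5, COL12A1, COL22A1, COL23A1 and COL24A1) stood on more than 1 gene identifier, with 12 rows between them, and how reads were split among such rows is not known. The yak annotation of RefSeq (assembly Bosgru_T2T1.0) lists 43 symbols of this form, of which 37 had a row, and COL6A6 had a row but no RefSeq entry. COL1A1, COL6A3, COL7A1, COL18A1, COL20A1 and COL27A1 were not analysed here, so the partner chain of COL1A2 in type I collagen is missing from every value that follows.

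Testes of 3 domesticated yaks of 1.5 years (Y group, described as before sexual maturity) and of 3 older yaks of 5 years (M group, described as after it) came from 1 location, and each testis gave an m6A immunoprecipitated library and an input library. The Y testes were removed by castration and the M testes after slaughter per the record and euthanasia per the article, so age and way of collection cannot be told apart. Expression is given as FPKM (mapped fragments per length of transcript, relative to library size) in the 6 input libraries, 1 animal each, and m6A as a list of peaks that differed between the ages.

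Collagens are secreted proteins in which 3 chains wind into a triple helix, and the chains that share a helix are encoded by separate genes. Fibrillar collagens such as types I and III form the fibres of connective tissue, while collagen IV forms the sheet-like network of basement membranes. In the testis, Sertoli cells and the contractile peritubular cells lay down together the basement membrane around each seminiferous tubule, and fibrillar collagens lie outside it in the tubule wall, the interstitium and the capsule. The mark m6A is a methyl group on adenosines of mRNA.

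The ages rest on the sample titles and on the growth protocol of the record. Its developmental stage field names the opposite stage for all samples, and the record uses M for the younger and Y for the older animals, whereas the letters are used here by age as in the article. Genes of late spermatids were high in the libraries labelled as before maturity: TNP1, which packs sperm DNA, had 883, 852 and 879 FPKM in the Y libraries and 201, 641 and 549.7 FPKM in the M libraries. Every direction given here therefore holds for the libraries as titled. Across the 12437 genes that passed a minimum mean FPKM of 0.5, M replicate 1 stood apart from the Y libraries (Pearson's r of log2 values 0.817 to 0.837), while M replicate 2 was closer to the Y libraries (r = 0.942 to 0.947) than to M replicate 1 (r = 0.868) or M replicate 3 (r = 0.935). FPKM summed to between 133504 and 139921 in the Y libraries and between 116187 and 131024 in the M libraries. Relative depth, read from the steps between low values, lay between 0.993 and 1.10 times that of Y replicate 1, and beyond that the table does not tell how many fragments a value rests on.

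Collagen mRNA was a small share of the testis transcriptome at both ages. The 45 rows summed to 53.4, 68.4 and 66.2 FPKM in the Y libraries and to 84.6, 68.2 and 81.4 FPKM in the M libraries, or 62.7 ± 8.11 against 78.1 ± 8.67 FPKM (SD, n = 3 each). M replicate 2 lay within the Y range, so the groups overlapped. As a share of all FPKM in a library the collagens held 0.0382% to 0.0513% in the Y group and 0.0521% to 0.0728% in the M group. In tissue RNA, fewer cells of a type and less RNA per cell cannot be told apart, and this holds for each level given here.

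The family was uneven. Of the 45 rows, 24 passed the filter of a mean FPKM of at least 0.5 and were tested, 17 had some signal below it, and 4 were listed at 0 in every library (additional identifiers of COL4A5, COL12A1 and COL23A1). Among the Y libraries COL6A2, COL3A1 and COL1A2 had the highest mean levels of the family, and among the M libraries COL3A1, COL6A2 and COL1A2 did. None of the 6 rows of transmembrane collagens (COL13A1, COL17A1, COL23A1 and COL25A1) passed the filter, and together they stayed between 0.0255 and 0.180 FPKM in every library.

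**Figure D1:**
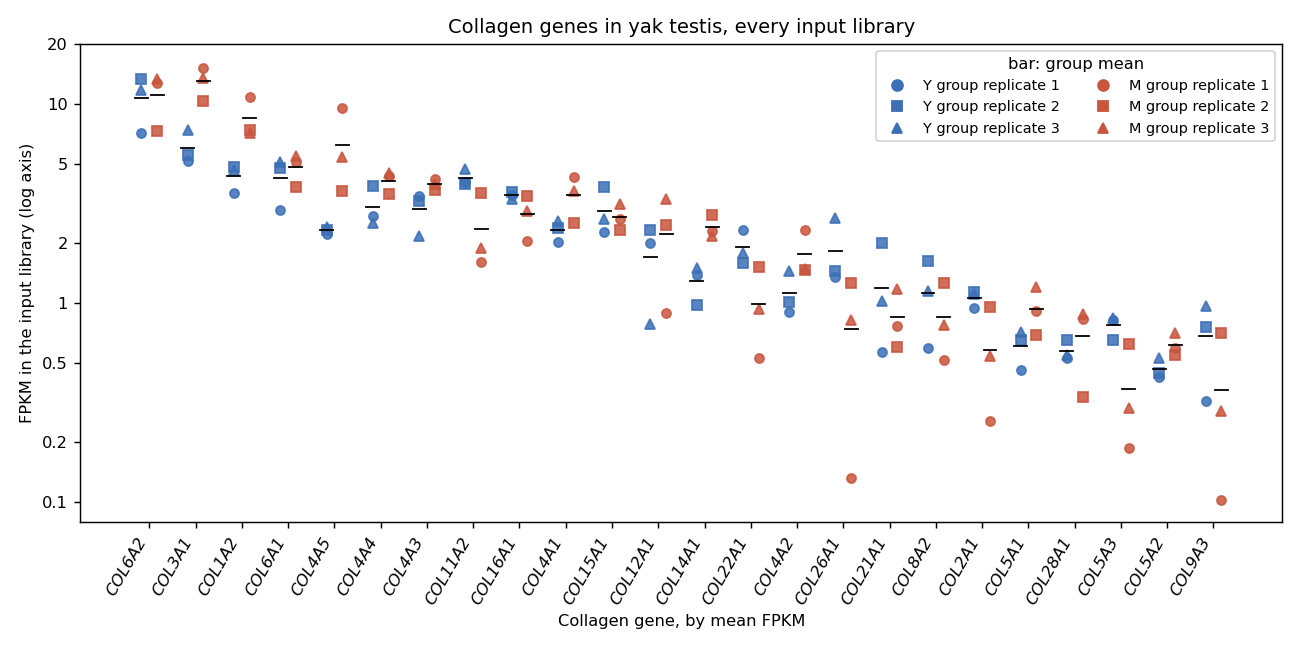
FPKM (log axis) of the 24 tested collagen genes in each input library, ordered by mean FPKM, with Y libraries in blue, M libraries in red, a shape per replicate number and a bar at each group mean. COL3A1, COL1A2, COL4A5, COL4A3, COL14A1, COL4A2 and COL5A2 have all 3 M points above all 3 Y points, whereas COL11A2, COL22A1, COL26A1 and COL5A3 have them below.

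With all 6 libraries, no collagen gene differed between the ages at an adjusted p-value under 0.05 (limma on log2(FPKM + 0.1), Benjamini-Hochberg over all 12437 genes tested), where 4 of all genes (0.0322%) did. At an unadjusted p-value under 0.05, 5 of the 24 collagen genes were higher in the M group, beside 14.2% of all genes tested, and 3 were lower, beside 10.9%. This split depended on the scaling: 8 were higher and 2 lower with each library set to the same FPKM sum (19.5% and 8.46% of all genes), 4 and 5 after quantile normalization (12.6% and 11.1%), and 4 and 3 with median-ratio scaling (11.4% and 13.7%). Values of the M libraries lay above all Y values for 7 collagen genes (19.8% of all genes) and below all Y values for 4 (13.9% of all genes). None of these counts was tested against its background. The median log2 fold change was 0.16 over the collagens and 0.04 over all genes.

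COL3A1 encodes the single chain of type III collagen, the collagen of thin reticular fibres (ENSBGRG00000003247). It had 5.15, 5.55 and 7.37 FPKM in the Y libraries and 15.2, 10.4 and 13.5 FPKM in the M libraries. Every M value was above every Y value, and the means of 6.02 ± 1.19 and 13.0 ± 2.43 FPKM (SD, n = 3 each) made a 2.16-fold difference. The log2 fold change was 1.10 (SE 0.21, 95% interval 0.61 to 1.59, limma unadjusted p = 0.00101, adjusted p = 0.154).

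COL1A2 encodes the second chain of type I collagen, the main collagen of tough fibres (ENSBGRG00000013466). Its level was 3.57, 4.84 and 4.69 FPKM in the Y libraries and 10.9, 7.42 and 7.17 FPKM in the M libraries, again without overlap and 1.94-fold higher by the means. The log2 fold change was 0.93 (SE 0.21, unadjusted p = 0.00319, adjusted p = 0.154, limma). COL1A2 and COL3A1 together gave 8.71, 10.4 and 12.1 FPKM in the Y group and 26.0, 17.8 and 20.7 FPKM in the M group.

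The remaining fibrillar genes divide into those that build on type I and III fibres and those best known from cartilage. COL5A1 and COL5A2 encode chains of type V collagen, which starts the assembly of type I fibrils. COL5A2 was between 0.427 and 0.530 FPKM in the Y libraries and between 0.552 and 0.708 FPKM in the M libraries, without overlap, at a log2 fold change of 0.34 (limma unadjusted p = 0.29). COL5A1 had a log2 fold change of 0.54 (unadjusted p = 0.124), with overlapping libraries.

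COL11A2, a chain of the type XI collagen of cartilage fibrils, stood on the other side (ENSBGRG00000019137). It had 4.04, 3.94 and 4.71 FPKM in the Y libraries and 1.62, 3.56 and 1.90 FPKM in the M libraries, all M values below all Y values. Its log2 fold change was -0.89 (SE 0.29, limma unadjusted p = 0.0173, adjusted p = 0.157). In the Y group its mean of 4.23 ± 0.416 FPKM was close to the 4.36 ± 0.695 FPKM of COL1A2, whereas in the M group it was 2.36 ± 1.05 FPKM against 8.48 ± 2.06 FPKM (SD, n = 3 each).

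The other minor fibrillar chains were mixed. COL5A3, a further type V chain, had 0.827, 0.655 and 0.846 FPKM in the Y libraries and 0.187, 0.627 and 0.299 FPKM in the M libraries (log2 fold change -0.998, SE 0.42, limma unadjusted p = 0.0478, adjusted p = 0.196). COL2A1, the chain of the main cartilage collagen, had 0.946, 1.14 and 1.11 FPKM against 0.256, 0.953 and 0.543 FPKM, where M replicate 2 reached the Y range (log2 fold change -0.90, unadjusted p = 0.0653). COL24A1, another fibrillar gene, was below the filter at 0.522, 0.527 and 0.445 FPKM against 0.0741, 0.403 and 0.0772 FPKM, without overlap. COL11A1, further below the filter, was higher in the M group by its means, at 0.118 against 0.0694 FPKM, with overlapping libraries. The 7 tested fibrillar genes had a median of 0.34, made of 4 positive log2 fold changes of up to 1.10 and 3 negative ones of down to -0.998.

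**Figure D2:**
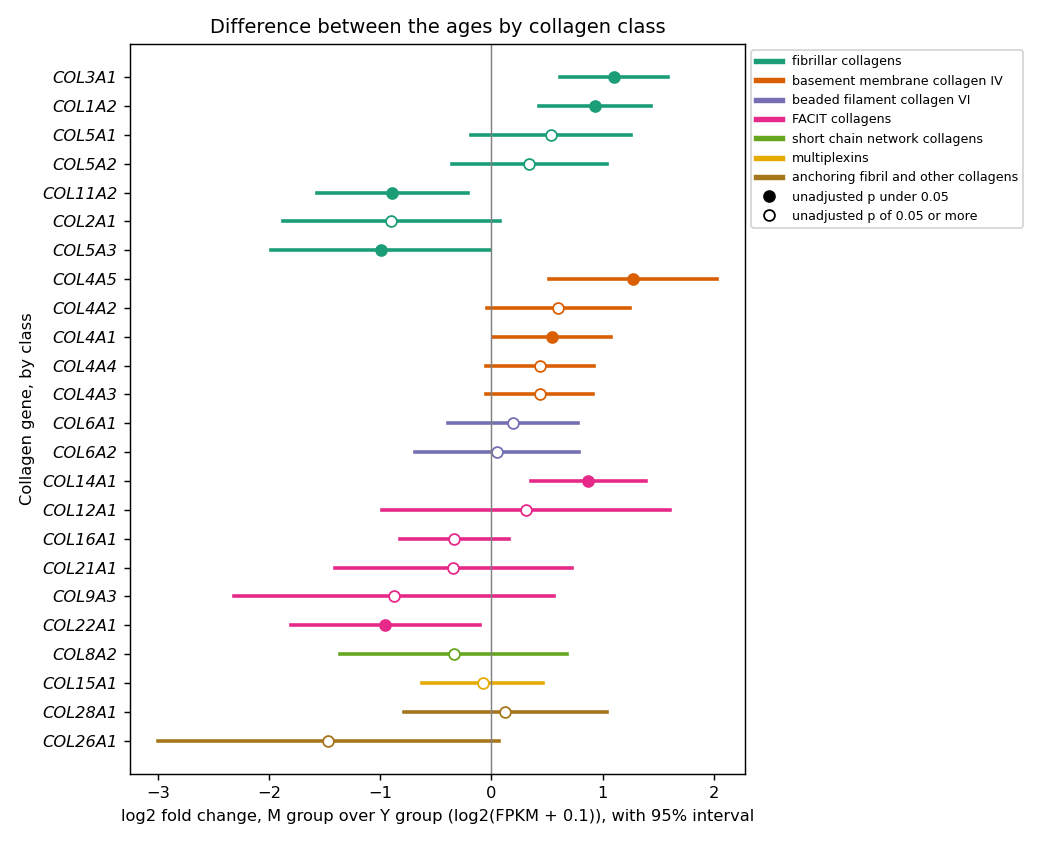
Log2 fold change of each tested collagen gene (M group over Y group, limma on log2(FPKM + 0.1), n = 3 libraries each) with its 95% interval, grouped by collagen class; filled points had an unadjusted p-value under 0.05, and no adjusted p-value was under 0.05. All 5 collagen IV genes lie to the right of 0 (0.43 to 1.27), while the fibrillar class splits between COL3A1 at 1.10 and COL5A3 at -0.998.

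All 5 tested genes of collagen IV had a positive log2 fold change, at a median of 0.54. Of these, 2 had an unadjusted p-value under 0.05 (limma), beside 14.2% of all genes, and 3 had no overlap between the ages, beside 19.8%. Their signs held under each rescaling of the libraries and with each library left out. The summed FPKM of the collagen IV rows was 11.5, 13.0 and 11.4 in the Y libraries and 25.4, 15.2 and 19.6 in the M libraries, with no M library inside the Y range.

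COL4A5 had the largest fold change among them (ENSBGRG00000021853). The chain joins a network with the products of COL4A3 and COL4A4, or another with that of COL4A6. Its 3 Y values were close together at 2.23, 2.32 and 2.41 FPKM, and its M values were 9.52, 3.66 and 5.42 FPKM, a 2.67-fold difference of the means. The log2 fold change was 1.27 (SE 0.32, limma unadjusted p = 0.00523, adjusted p = 0.154). The M libraries ranged more widely than the Y libraries, at an SD of 3.00 against 0.0877 FPKM.

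COL4A3 and COL4A4 encode the partner chains of the COL4A5 product in specialised basement membranes, that of the seminiferous tubule included. COL4A3 had 3.46, 3.24 and 2.18 FPKM in the Y libraries and 4.20, 3.72 and 3.97 FPKM in the M libraries, without overlap (log2 fold change 0.43, limma unadjusted p = 0.0704). COL4A4 had 2.73, 3.89 and 2.53 FPKM versus 4.34, 3.52 and 4.49 FPKM, where M replicate 2 lay inside the Y range (log2 fold change 0.44, unadjusted p = 0.0716). Both differences were smaller than that of COL4A5, though these differences between genes were not tested.

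COL4A1 and COL4A2 encode the chains of the network found in nearly all basement membranes. COL4A1 had 2.03, 2.38 and 2.58 FPKM in the Y libraries and 4.30, 2.54 and 3.66 FPKM in the M libraries (log2 fold change 0.54, SE 0.23, limma unadjusted p = 0.0465, adjusted p = 0.194), and M replicate 2 again lay inside the Y range. COL4A2 had 0.907, 1.01 and 1.45 FPKM against 2.33, 1.47 and 1.49 FPKM, without overlap (log2 fold change 0.60, unadjusted p = 0.0622). COL4A6 was below the filter at 0.178, 0.170 and 0.286 FPKM in the Y libraries and 0.723, 0.298 and 0.603 FPKM in the M libraries, the lowest M value just above the highest Y value.

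Levels per transcript length can be set against each other within a library, though the lengths used are not known. The proportions of several partner chains overlapped between the ages. The ratio of COL4A2 to COL4A1 was 0.478 ± 0.0736 in the Y group and 0.509 ± 0.0899 in the M group, and that of COL4A4 to COL4A3 was 1.05 ± 0.227 and 1.04 ± 0.0926. For COL4A6 to COL4A5 the ratio was 0.0905 ± 0.0245 and 0.0895 ± 0.0190, and for COL6A1 to COL6A2 it was 0.400 ± 0.0393 and 0.446 ± 0.0701 (SD, n = 3 each). All 4 ratios overlapped between the ages, which does not show them to be equal, and COL4A6 lay below the filter. In RefSeq (assembly Bosgru_T2T1.0) each of these 4 pairs lies side by side on a chromosome with 0 coding genes between them.

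Of 4 further ratios, across networks or fibres, 2 separated the ages. COL4A5 was level with COL4A1 in the Y group, at ratios of 1.10, 0.976 and 0.933, and above it in the M group, at 2.21, 1.44 and 1.48, without overlap. COL5A2 to COL3A1, a pair that is also adjacent in RefSeq, had ratios of 0.0830, 0.0807 and 0.0719 in the Y group and 0.0394, 0.0532 and 0.0523 in the M group, so that COL3A1 stood further above COL5A2 in the M libraries. COL1A2 to COL3A1 was 0.733 ± 0.123 against 0.653 ± 0.107, and COL4A3 to COL4A1 was 1.30 ± 0.435 against 1.17 ± 0.256 (SD, n = 3 each), both with overlap. With 3 libraries against 3, an exact permutation test of a ratio cannot give a two-sided p-value below 0.1, and none is given.

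**Figure D3:**
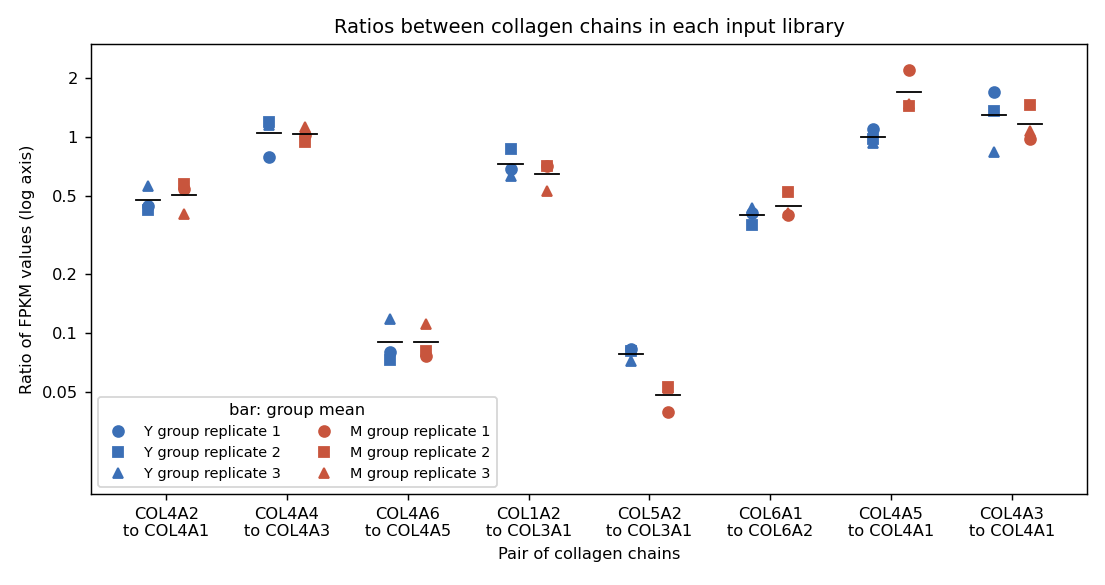
Ratio of the FPKM values of 2 collagen genes (log axis) in each input library, Y libraries in blue and M libraries in red, a shape per replicate number, bars at group means. The Y and M points of COL5A2 to COL3A1 (lower in M, mean 0.0483 against 0.0785) and COL4A5 to COL4A1 (higher in M, mean 1.71 against 1.00) are separate, and the other 6 pairs overlap.

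Collagen VI, which forms beaded filaments close to cells, was abundant and overlapped between the ages. COL6A2 had 7.17, 13.3 and 11.8 FPKM in the Y libraries and 12.7, 7.31 and 13.4 FPKM in the M libraries, and its log2 fold change of 0.05 (95% interval -0.69 to 0.79, limma unadjusted p = 0.882) turned negative with median-ratio scaling. COL6A1 had 2.94, 4.76 and 5.12 FPKM against 5.11, 3.85 and 5.50 FPKM (log2 fold change 0.19, 95% interval -0.40 to 0.78, unadjusted p = 0.464). In both genes Y replicate 1 and M replicate 2 were the low libraries of their groups. Both intervals reach a difference of over 1.5-fold, so equal expression was not shown. COL6A6, below the filter, had 0.422, 0.317 and 0.399 FPKM against 0.107, 0.264 and 0.121 FPKM, without overlap.

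The FACIT collagens (fibril-associated collagens with interrupted triple helices) sit on the surface of other fibrils, and their 6 tested genes were mixed. COL14A1, which binds type I fibrils, had 1.38, 0.979 and 1.50 FPKM in the Y libraries and 2.29, 2.78 and 2.18 FPKM in the M libraries (log2 fold change 0.87, SE 0.22, limma unadjusted p = 0.00507, adjusted p = 0.154). It differed from the other genes higher in M in that M replicate 2 was its highest library. COL12A1, its close relative, spread from 0.789 to 2.34 FPKM in the Y libraries and from 0.890 to 3.32 FPKM in the M libraries (log2 fold change 0.31, unadjusted p = 0.589).

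COL22A1, known from tissue junctions such as that of muscle and tendon, was lower in M (ENSBGRG00000024054). It had 2.34, 1.58 and 1.79 FPKM in the Y libraries and 0.532, 1.51 and 0.940 FPKM in the M libraries (log2 fold change -0.96, SE 0.36, limma unadjusted p = 0.0326, adjusted p = 0.174). M replicate 2, at 1.51 FPKM, was only just below the lowest Y value. COL16A1 was at 3.33 to 3.63 FPKM in the Y libraries and 2.06 to 3.43 FPKM in the M libraries (log2 fold change -0.34, unadjusted p = 0.149). COL9A3 and COL21A1 had log2 fold changes of -0.87 and -0.34 with overlapping libraries (unadjusted p = 0.195 and 0.475). COL19A1 lay far below the filter, at 0.0402, 0.0258 and 0.0370 FPKM against 0.205, 0.0534 and 0.0511 FPKM, and although its values did not overlap they came from at least 31 fragments in all, 15 of them in M replicate 1.

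COL26A1, a collagen with an EMI domain that was described from testis and ovary, had the most negative log2 fold change among the tested collagens. Its values were 1.35, 1.44 and 2.68 FPKM in the Y libraries and 0.133, 1.27 and 0.823 FPKM in the M libraries, without overlap (log2 fold change -1.47, SE 0.65, limma unadjusted p = 0.0582). M replicate 1 was far below the rest and M replicate 2 close to the Y values. COL15A1, a basement membrane zone collagen with side chains of glycosaminoglycan, was at 2.27 to 3.83 FPKM and 2.33 to 3.14 FPKM, and its log2 fold change of -0.08 (unadjusted p = 0.74) turned positive when libraries were scaled to the same FPKM sum. COL8A2 and COL28A1 were at -0.34 and 0.13 (unadjusted p = 0.456 and 0.756), the latter negative after quantile normalization.

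The M libraries took the same order in many collagens. Of the 10 tested genes with a negative log2 fold change, M replicate 1 was the lowest M library in 8 and M replicate 2 the highest in 8. Of the 14 with a positive one, M replicate 2 was the lowest in 11. Against the mean of the Y libraries, the median difference of the negative genes was -1.47, -0.25 and -0.88 (log2) in M replicates 1, 2 and 3, and that of the positive genes was 0.52, 0.29 and 0.60. The split by sign is itself made from the M values, so these counts and medians are a description. Across all genes tested M replicate 2 was also the M library closest to the Y libraries (r = 0.942 to 0.947). The order of the M libraries was not counted over all genes, so it is not shown to be particular to the collagens. Over all 24 genes the medians were 0.29, 0.13 and 0.40.

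Single libraries decided how many collagens passed a threshold. Without M replicate 2, 8 of the 24 had an adjusted p-value under 0.05 (limma), higher in M for COL3A1 (log2 fold change 1.25, adjusted p = 0.021), COL4A5 (1.59, 0.021), COL1A2 (1.01, 0.0373) and COL4A1 (0.75, 0.0411), and lower in M for COL11A2 (-1.22, 0.0183), COL22A1, COL2A1 and COL5A3. Among all genes 2403 (19.3%) passed in that fit. Without M replicate 1, 0 collagens passed, and at an unadjusted p-value under 0.05 there were 4 higher (COL3A1, COL1A2, COL4A5 and COL14A1) and 1 lower (COL11A2), beside 9.99% and 8.51% of all genes. COL3A1, COL1A2, COL4A5 and COL14A1 had an unadjusted p-value under 0.05 with each of the 6 libraries left out in turn. COL11A2 did in 4 of the 6 (it lost it without Y replicate 3 or M replicate 3), COL22A1 in 2, and COL4A1 and COL5A3 in 1. Over all genes, 8.31% to 21.8% were higher and 4.88% to 18.3% lower at that threshold in these fits taken singly. How many of all genes passed in several of the fits was not counted, so such persistence is not shown to be particular to these collagens.

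Markers of the cells in the tubule wall also differed between the libraries. All 7 peritubular and smooth muscle markers had a positive log2 fold change, 5 with an unadjusted p-value under 0.05 (limma, 14.2% of all genes in this direction), and their summed FPKM was 19.3 to 20.5 in the Y libraries and 24.2 to 45.4 in the M libraries. ACTA2, the smooth muscle actin, had 7.39, 6.85 and 7.87 FPKM against 16.99, 8.81 and 15.4 FPKM. Sertoli cell markers were positive in 6 of 6, 5 with an unadjusted p-value under 0.05, and summed to 47.9 to 57.6 FPKM in the Y libraries and 61.4 to 108 FPKM in the M libraries. Most of that sum was DMRT1, at 35.4, 37.1 and 30.9 FPKM against 64.8, 35.8 and 40.5 FPKM. For DMRT1, M replicate 2 lay inside the Y range (log2 fold change 0.40, limma unadjusted p = 0.135). Fibroblast and stromal markers were positive in 5 of 5 tested, 2 of them with an unadjusted p-value under 0.05 (DCN and TCF21, limma). All 7 markers of this list summed to 6.69 to 9.20 against 11.6 to 16.7 FPKM. Below the filter, MFAP5 was lower in M by its means (0.0939 against 0.243 FPKM) and DPT higher (0.158 against 0.0894 FPKM). Both had overlapping libraries. None of these defining markers was at 0 in a library except MFAP5 in M replicate 2.

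Spermatid markers ran the other way. All 5 round spermatid markers were negative (summed FPKM 259 to 279 in the Y libraries and 50.0 to 187 in the M libraries). So were the 4 elongating spermatid markers (1154 to 1195 against 263 to 849 FPKM). In each set 4 had an unadjusted p-value under 0.05 (limma), beside 10.9% of all genes in this direction. The 7 spermatocyte markers had a median log2 fold change of 0.03 with none under that threshold. Against the Y mean, the median difference in M replicates 1, 2 and 3 was 1.25, 0.27 and 1.06 for the peritubular list and -2.20, -0.29 and -1.48 for the round spermatid list, so M replicate 2 was the library nearest to the Y group here too. The part of these shifts in the collagen values was not tested.

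**Figure D4:**
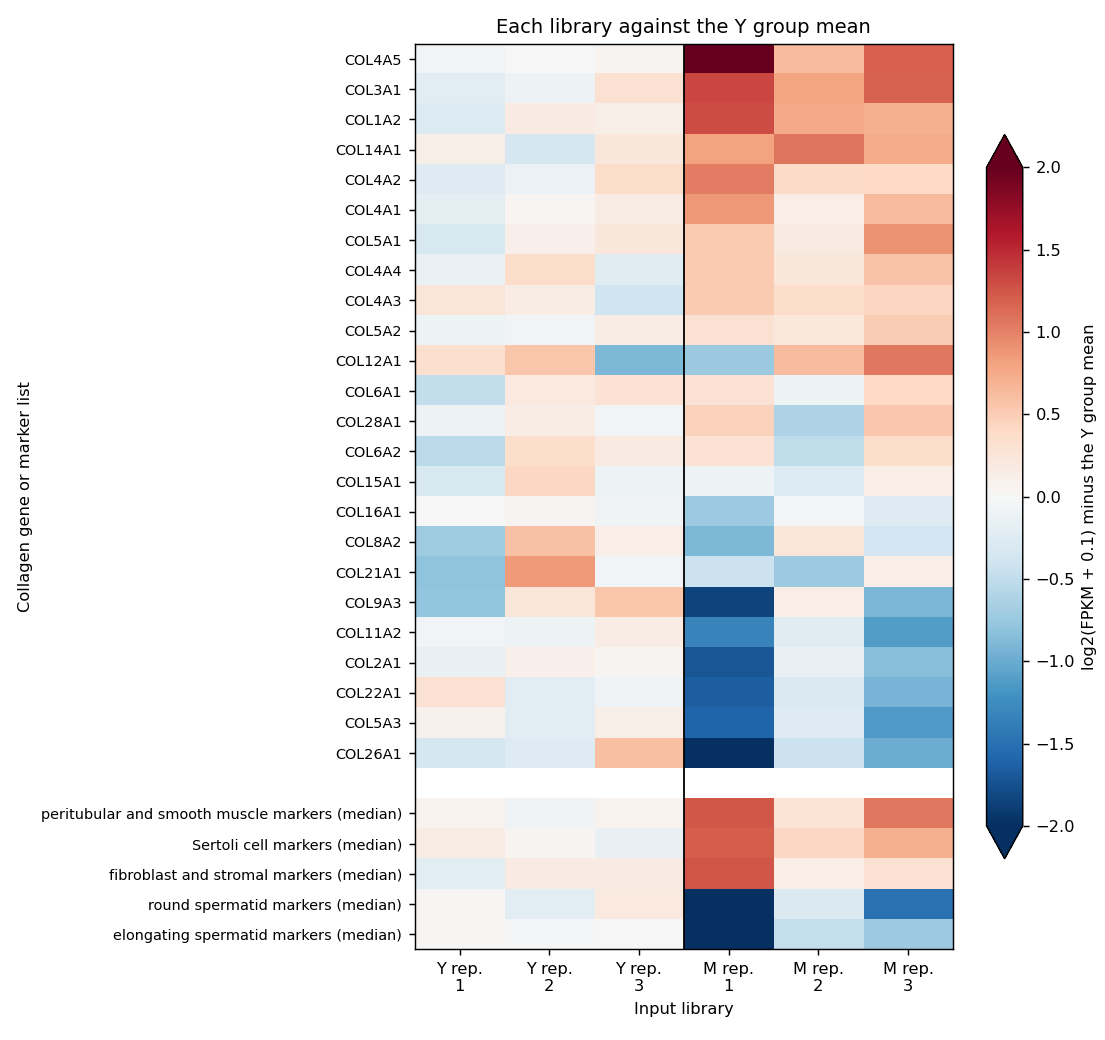
Difference of each input library from the Y group mean, on the log2(FPKM + 0.1) scale (red higher, blue lower, colours end at 2 and -2), for the 24 tested collagen genes ordered by log2 fold change and for the medians of 5 marker lists. M replicate 2 is the palest M column in most rows, and M replicate 1 the deepest for the peritubular (1.25) and round spermatid (-2.20) lists as for COL4A5 and COL26A1.

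Endothelial markers were positive in 4 of 5 tested, while macrophage and Leydig cell markers went both ways. Endothelial markers had a median of 0.12 over 5 tested genes, with summed FPKM of 9.93 to 15.6 against 15.1 to 22.0, and CLDN5, a tight junction protein of vessels, was higher in M (log2 fold change 1.03, limma unadjusted p = 0.0293). Macrophage markers had a median of 0.0027 over 5 genes, 3 positive and 2 negative, and summed to 22.6 to 25.8 against 13.4 to 27.9 FPKM. AIF1 and CD163 were lower in M (limma unadjusted p = 0.0103 and 0.015). CD14, the most abundant of the list, had a positive log2 fold change of 0.55 (unadjusted p = 0.0998). Of the Leydig cell markers, STAR, which brings cholesterol into mitochondria, was lower in M (log2 fold change -0.92, unadjusted p = 0.0071) and CYP11A1 had an unadjusted p of 0.794, and the 2 summed to 10.1 to 19.1 against 7.40 to 8.40 FPKM. The 1 erythroid marker with a row, ALAS2, was below the filter.

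Chains have to be hydroxylated, glycosylated and folded in the endoplasmic reticulum before they form a helix. Of 18 tested genes for folding and modification, 7 had an unadjusted p-value under 0.05 with a higher M level and 0 with a lower one (limma), beside 14.2% and 10.9% of all genes, at a median log2 fold change of 0.51. None had an adjusted p-value under 0.05. HSPA5, a general chaperone of that compartment and the most abundant of the list, had 112, 86.6 and 91.2 FPKM against 88.6, 94.7 and 94.7 FPKM (log2 fold change -0.05, unadjusted p = 0.759).

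P3H3, of the prolyl 3-hydroxylase family, had the largest difference of all genes in the lists around collagen. It had 0.643, 0.627 and 0.671 FPKM in the Y libraries and 12.0, 3.60 and 4.22 FPKM in the M libraries, 10.2-fold by the means (log2 fold change 2.95, SE 0.43, limma unadjusted p = 0.00021, adjusted p = 0.129). P3H4, which acts in a complex with the P3H3 product on lysine hydroxylation, had 0.746, 0.985 and 0.584 FPKM against 2.30, 1.31 and 1.27 FPKM (log2 fold change 0.96, unadjusted p = 0.0174). All M values were above all Y values in both genes, and M replicate 1 was the highest.

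Lysine modification further included PLOD2 and COLGALT1. PLOD2, the lysyl hydroxylase that prepares chain ends for cross-links, had 0.401, 0.0891 and 0.161 FPKM in the Y libraries and 2.03, 1.24 and 1.13 FPKM in the M libraries (log2 fold change 2.38, SE 0.45, limma unadjusted p = 0.00105, adjusted p = 0.154). COLGALT1, which adds galactose to hydroxylysine, had 0.878, 1.24 and 1.35 FPKM against 2.97, 1.86 and 2.05 FPKM (log2 fold change 0.92, unadjusted p = 0.00823). Neither gene overlapped between the ages.

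Genes for export, cleavage and cross-linking did not share this direction. Of the 7 tested genes for export, cleavage and cross-linking, 0 had an unadjusted p-value under 0.05 (limma) and 6 were negative, at a median of -0.26. LOXL1, a lysyl oxidase relative and the most abundant of them, had 16.0, 12.0 and 17.9 FPKM in the Y libraries and 9.81, 13.8 and 15.8 FPKM in the M libraries (log2 fold change -0.23, unadjusted p = 0.356). Of the 5 tested collagen receptors, 4 were positive, at a median of 0.23. DDR1, a receptor kinase, was the 1 of them with an unadjusted p-value under 0.05 (limma), beside 14.2% of all genes with a higher M level. It had 2.84, 2.56 and 2.20 against 3.59, 3.11 and 3.38 FPKM (log2 fold change 0.40, limma unadjusted p = 0.043, adjusted p = 0.189). Of the 6 tested genes for breakdown, 5 were positive, at a median of 0.22. TIMP3, an inhibitor of metalloproteinases held in the matrix, was the 1 of them under that threshold, beside the same 14.2%. It had 13.2, 13.7 and 12.8 against 26.1, 16.4 and 22.9 FPKM (log2 fold change 0.69, limma unadjusted p = 0.00896, adjusted p = 0.154). TIMP2, the most abundant of the breakdown list, had a log2 fold change of 0.26 (unadjusted p = 0.404), and MMP9 was listed at 0 in every library.

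Laminins, nidogen and small proteoglycans sit beside collagen in the matrix. Of 14 tested genes for such partners, 7 had an unadjusted p-value under 0.05 with a higher M level and no overlap (LAMA1, DCN, NID1, LAMB2, LAMC1, BGN and FN1), and 0 had a lower one (limma), at a median of 0.58. Over all genes, 14.2% passed that threshold with a higher M level and 19.8% were higher without overlap. DCN also stands in the list of fibroblast and stromal markers, so that list and this one are not independent. LAMA1, a laminin chain of the tubule basement membrane, had 2.60, 2.53 and 2.33 FPKM in the Y libraries and 9.56, 4.97 and 6.98 FPKM in the M libraries (log2 fold change 1.44, SE 0.24, unadjusted p = 0.000491, adjusted p = 0.154). NID1, which links laminin to collagen IV, had 1.78, 1.96 and 1.23 against 3.62, 2.96 and 3.13 FPKM (log2 fold change 0.95, unadjusted p = 0.00283).

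DCN, a proteoglycan on type I fibrils, had 1.83, 2.62 and 2.62 FPKM in the Y libraries and 5.73, 4.97 and 4.57 FPKM in the M libraries (log2 fold change 1.09, SE 0.19, limma unadjusted p = 0.00075, adjusted p = 0.154). LAMB2, another laminin chain, was 1.71-fold higher (log2 fold change 0.72, unadjusted p = 0.00878). SPARC, a collagen-binding protein and by far the most abundant partner, had 215, 191 and 266 against 117, 194 and 152 FPKM, with M replicate 2 inside the Y range (log2 fold change -0.56, unadjusted p = 0.0555).

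**Figure D5:**
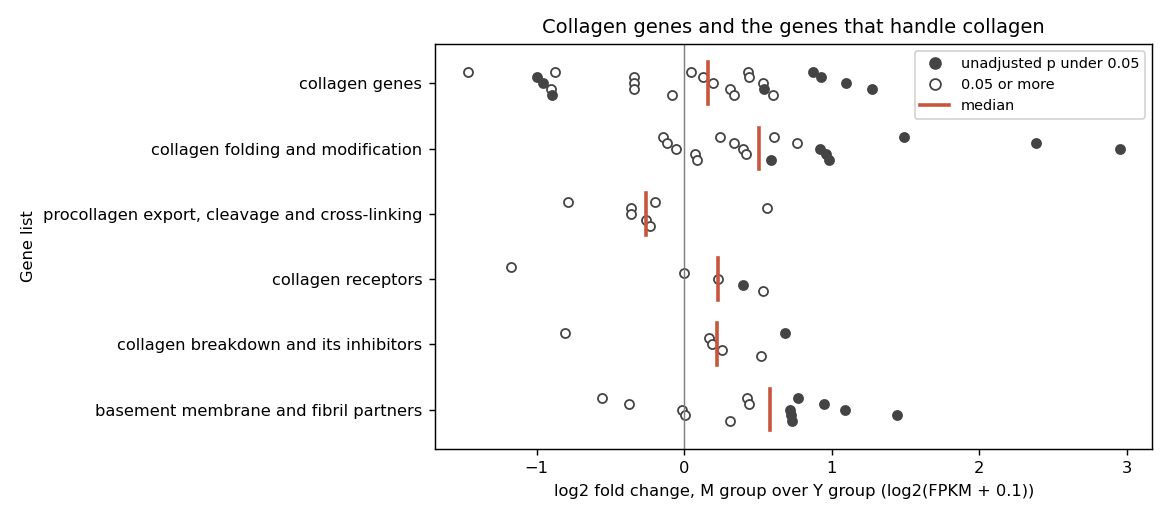
Log2 fold change (M group over Y group, limma on log2(FPKM + 0.1)) of each tested gene in the collagen family and in 5 lists of genes that handle collagen, 1 point per gene, filled where the unadjusted p-value was under 0.05, with a red bar at the median of the list. Folding genes (median 0.51) and matrix partners (0.58) have filled points to the right of 0 only, collagens (0.16) on both sides, and export and cross-linking genes (-0.26) none.

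Differential m6A peaks lay on 3 of the 45 collagen rows (6.67%), beside 1179 of the 20953 genes of the table (5.63%). Among the genes tested for expression it was 3 of 24 (12.5%) against 9.29% of all. The deposited list gives no fold change, direction or value per animal for a peak, so only positions are reported, on the genome build LU_Bosgru_v3.0.

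The peak on COL6A1 spanned chr1:159045690-159046011 (322 bp) on the plus strand and was annotated to exon 4 of 38, 4310 bp from the transcription start. That on COL4A4 spanned chr2:23557386-23557535 (150 bp) on the plus strand and was annotated to exon 48 of 48, the last, ending 100 bp before the end of the gene. That on COL22A1 spanned chr18:17084259-17111548 on the minus strand, from start to end 27290 bp or 10.4% of the gene, with exon 39 of 65 as its annotation. The COL22A1 span thus crosses introns, and its width is not that of a single site. COL22A1 was the 1 gene of the 3 with an unadjusted p-value under 0.05 for its mRNA level, while COL6A1 and COL4A4 had overlapping libraries. COL3A1, COL1A2, COL4A5 and COL14A1 were not in the peak list.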

How the data were processed

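The FPKM values were deposited by the authors, 1 per gene and input library. Per the article's methods and the submitters' processing notes, reads were trimmed with Trimmomatic and aligned with HISAT2 2.0.4 to LU_Bosgru_v3.0, and uniquely mapped reads were kept. The program that computed FPKM is not given in the sources used here, and it cannot be told how reads shared by near-identical identifiers were split. Widths of the differential peaks, in bp, are deposited values of the authors, who called and compared peaks with MeTDiff. How replicates entered that comparison is not stated.

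Groups follow the ages in the sample titles. The 6 input libraries entered 1 fit in limma 3.58.1 (R 4.3.3, lmFit, eBayes with a trend, two-sided) on log2(FPKM + 0.1), for 12437 genes of a minimum mean FPKM of 0.5, with Benjamini-Hochberg adjustment over all of them. Fold changes on that scale understate the change of low genes, and p-values rest on the spread between 3 animals per age. Python 3.11.15, pandas 2.3.3, numpy 2.4.6 and matplotlib 3.10.9 were used otherwise. Whole fragments behind low rows were taken as the fewest that gave all FPKM values of a row to within 0.1 of a whole number.

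On simulated data of 12437 genes, a log2 change of 1 was recovered at an adjusted p-value under 0.05 in 22% of 200 genes and one of 2 in 80%. With none changed, 0 passed, and 5.31% were under 0.05 unadjusted. The noise was drawn independently for each gene, so shifts shared by many genes of a library were not simulated. These rates may therefore differ from those of the real libraries.

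The members, the gene lists and the rule for naming genes were chosen with earlier results of these data known. The rule named the 15 collagens of highest mean FPKM, those with an unadjusted p-value under 0.05, no overlap or a peak, and from each list the most abundant member and up to 4 members with an unadjusted p-value under 0.05 and no overlap. LAMC1, BGN, FN1, MMP9, MFAP5, DPT, CYP11A1, ALAS2 and the other collagens fall outside it and were named after their values were seen. Where a symbol outside the collagens stood on several identifiers, that of highest mean FPKM was used. Alternatives were other pseudocounts (0.01 and 1), filters, scalings, forms of eBayes, a replicate block, 1 row per symbol, short or merged peaks, and each library left out. Protein sequences, IP values by gene and reads were not analysed here.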

Additional observations from a re-analysis of the deposited data

How the results depend on the processing

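With all 6 libraries kept, 254 of 257 log2 fold changes of single collagen genes kept their sign and their side of an adjusted p-value of 0.05 (limma) under the alternatives. The exceptions were COL6A2 at -0.015 with median-ratio scaling, COL28A1 at -0.070 after quantile normalization and COL15A1 at 0.043 with the same FPKM sum per library. That last scaling moved the median of all genes from 0.04 to 0.17, and 8 collagens were then higher in M at an unadjusted p-value under 0.05 (5 with the values as deposited). The lower count was 5 in place of 3 after quantile normalization and with all genes above 0 in any library (11.1% and 8.63% of all genes). The median of the collagens was 0.31 with a mean FPKM of at least 1, where fewer genes are tested. Otherwise the cause was not tested. With 1 library left out, the count at an adjusted p-value under 0.05 ranged from 0 to 8. The unadjusted count ranged from 4 to 6 higher, beside 8.31% to 21.8% of all genes. The lower count ranged from 0 (without Y replicate 3 or M replicate 3) to 7 (without M replicate 2), and was 1 without Y replicate 1 or M replicate 1. Beside it, 4.88% to 18.3% of all genes were lower, the 18.3% also without M replicate 2. Genes without overlap ranged from 7 to 11 higher (22.2% to 33.4% of all genes) and from 4 to 7 lower (15.3% to 25.4%), and the median ranged from -0.069 (without M replicate 3) to 0.33 (without M replicate 2), with 0.01 without Y replicate 1 and 0.05 without M replicate 1. Signs turned in COL6A1 (-0.049 to 0.34), COL6A2 (-0.22 to 0.32), COL12A1 (-0.14 to 0.84), COL15A1 (-0.24 to 0.13), COL21A1 (-0.74 to 0.081) and COL28A1 (-0.081 to 0.50). The replicate numbers did not pair the animals (r of deviations -0.02, -0.09 and 0.01 for equal numbers, and not every library was closest to its own number). Among all genes the adjusted count of 4 was 2 to 9 under the other alternatives with all libraries, 1 with the replicate block and 0 to 2403 with 1 library left out. With the number as a replicate block, 0 collagens had an adjusted p-value under 0.05. At an unadjusted one 4 were higher and 2 lower, beside 11.3% and 9.34% of all genes. The summed collagen FPKM of the M group was 1.19 to 1.29 times that of the Y group under its alternatives and 1.37 times with the same FPKM sum per library, chosen after seeing the data, and counting only peaks of up to 1000 bp left 2 of 3. Depth limits the rows below the filter, and 3 libraries an age left most changes of 1 on the log2 scale uncalled in simulated data.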

Other observations

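Many collagen rows carried little or no signal. For 11 of them the values could be turned into whole fragments, between 1 and 31 in all 6 libraries together. COL17A1, which anchors epithelial cells, came from at least 1, 2 and 1 fragments in the Y libraries and 0, 1 and 2 in the M libraries. COL25A1 came from 1 fragment in Y replicate 2 and 1 in M replicate 3. COL9A1, a FACIT chain of cartilage, came from 1, 6 and 4 fragments against 8, 0 and 10, so that M replicates differed more from each other than the ages did. The second row of COL24A1 held 0, 1 and 2 fragments in the Y libraries and 0 in all M libraries, a count too low to set beside the difference of its main row. With genes below the filter included in the fit, COL4A6 (log2 fold change 1.00), COL24A1 (-1.26) and COL6A6 (-0.90) had unadjusted p-values of 0.0292, 0.0276 and 0.0249 and adjusted p-values of 0.217, 0.214 and 0.21 (limma). No other of the 17 collagen rows with signal below the filter had an unadjusted p-value under 0.05. Over all genes of that fit, 11.5% were higher and 8.63% lower in M at this threshold.

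The functional annotation deposited with the table described the collagens unevenly. The term extracellular matrix structural constituent was on 19 of the 45 rows, collagen trimer on 9, and the pathway ECM-receptor interaction on 6 rows, with COL6A1, COL6A2 and COL1A2 but neither COL3A1 nor any collagen IV gene. A total of 27 rows had no pathway and 3 no GO term. RNA-directed DNA polymerase activity, a term of retroelements, was on 12 of the 45 rows, COL4A3, COL4A5, COL22A1 and COL26A1 among them, and on 3523 of all 20953 rows.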
